A study of Mus musculus with 6 samples.

Results

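The Ifi200 genes encode the mouse PYHIN proteins, a family of interferon-inducible DNA-binding proteins, and 9 of them were examined here, Aim2, Ifi206, Ifi214, Ifi213, Ifi209, Ifi208, Ifi204, Mndal and Ifi203. They were taken by gene symbol from a deposited table of 18122 rows of RNA-seq values in mouse CD8+ T cells, and all 9 were found. The family was chosen by the measured FPKM of Ifi208, which was known to be low in the knockout libraries, so the genotype values of Ifi208 are given as a description with no test. The other 8 members answer whether its neighbours share that loss.

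Most PYHIN proteins join a pyrin domain, which binds other pyrin domains, to 1 or more HIN domains, which bind DNA. Aim2 senses DNA in the cytosol and assembles an inflammasome through the adaptor Pycard, while Ifi204 has been linked to the cGAS and STING route to interferon and to growth control. Type I interferon induces the family through the interferon-stimulated response element (ISRE) in target promoters. The genes arose by repeated duplication and stand next to each other on mouse chromosome 1.

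The cells were CD8+ T cells from lymph nodes of wild-type (WT) mice and of Dusp2-/- mice (Dusp2KO), which lack a phosphatase acting on MAP kinases. All were cultured for 18 h on plates coated with 1 µg/mL of anti-CD3 antibody, with 1 µg/mL of anti-CD28 antibody, 50 ng/mL of the interferon IFN-α and 20 ng/mL of IL-4. Every library thus comes from cells given an inducer of this family, and no untreated cells were analysed here. Cells were then sorted by CD44 into a very high (CD44hi) and a low (CD44lo) fraction. CD44hi has 2 libraries per genotype and CD44lo has 1. Strain, sex, age and whether libraries came from separate animals is not given in the sources used here, so the spread behind each p-value is that between libraries and may be technical. In bulk RNA, fewer cells with a transcript and less transcript per cell cannot be told apart.

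Part of the labels' text names Cd4-Cre Rpa1fl/fl mice in place of Dusp2-/- mice. Dusp2 was at 82.6, 83.9 and 116 FPKM (fragments per kilobase of gene and per 1000000 fragments) in the WT libraries and at 0, 0.0283 and 0 FPKM in the Dusp2KO libraries, and Rpa1 was between 27.4 and 41.4 FPKM in all 6. Xist, expressed from the inactive X chromosome of female cells, reached 15.1 and 15.5 FPKM in both libraries of Dusp2KO CD44hi and no more than 0.00641 FPKM in the other 4. Genotype and other differences between the mice therefore cannot be told apart. The CD8 T cell markers summed to between 915 and 1309 FPKM. Recovered reads per library ran from 23490008 in Dusp2KO CD44lo to 55830235, and the 9 genes together had between 26656 and 95062 of them.

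Promoter sequences show how close these copies are. They are from RefSeq (build GRCm38.p6) and run from 250 bases before to 50 after each annotated start. Of the 9 members, 8 were matched. The promoter of Ifi208 was 98.9% identical to that of Ifi213 over 285 aligned positions and 98.9% identical to that of Ifi206 over 282. Ifi214 and Ifi209 were 95.7% identical over 300 positions, and Mndal and the second start of Ifi203 were 94.3% identical over 299. Between the Ifi208 and the Ifi209 promoters identity was 74.5% over 145 positions. The stretches printed here surround a match to the ISRE core (GAAA, any 2 bases, GAAA), shown in capitals, because it is the element through which interferon acts on such genes. All are read 5′ to 3′ on the gene's own strand and lie before the start.
Ifi208: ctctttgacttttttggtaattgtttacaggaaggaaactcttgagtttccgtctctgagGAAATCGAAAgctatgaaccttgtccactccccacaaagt
Ifi213: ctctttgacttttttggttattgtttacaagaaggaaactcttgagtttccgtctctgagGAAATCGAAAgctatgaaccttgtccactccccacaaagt
Ifi206: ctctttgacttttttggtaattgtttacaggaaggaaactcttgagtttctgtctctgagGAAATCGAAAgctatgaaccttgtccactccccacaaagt
Ifi214: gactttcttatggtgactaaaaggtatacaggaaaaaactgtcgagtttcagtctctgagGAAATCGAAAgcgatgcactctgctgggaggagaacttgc
Ifi209: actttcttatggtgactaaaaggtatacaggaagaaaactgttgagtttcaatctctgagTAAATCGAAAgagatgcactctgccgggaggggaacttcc
Mndal: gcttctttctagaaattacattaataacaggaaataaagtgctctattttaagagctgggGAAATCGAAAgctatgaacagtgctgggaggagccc
Ifi203: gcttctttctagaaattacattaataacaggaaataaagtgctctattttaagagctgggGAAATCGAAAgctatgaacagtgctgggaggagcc

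These stretches lie at chr1:173673547-173673646 (plus strand) for Ifi208, chr1:173599306-173599405 (minus) for Ifi213, chr1:173491319-173491418 (minus) for Ifi206, chr1:173535997-173536096 (minus) for Ifi214, chr1:173630720-173630819 (plus) for Ifi209, chr1:173880188-173880283 (minus) for Mndal and chr1:173942493-173942587 (minus) for Ifi203. Counted from the first printed base, the Ifi208 stretch differed from that of Ifi206 by C51T and from that of Ifi213 by A19T and G30A, none of them in the core. The Mndal and Ifi203 stretches had 0 differences over 95 bases. In Ifi209 the capitals mark the place of the core, which there carries G1T relative to Ifi214, counted from the first base of the core, and no longer matches it. Searched on both strands, that core was found in 3.44% of all 32851 promoters of the table. The longer run GAAATCGAAAG is the core of Ifi208 with its next base, chosen after the members' promoters had been read. A match in Ifi208 was therefore fixed in advance, as it was in near-identical copies with the same letters. The run was found in 6 promoters of the whole table (0.0183%). All 6 belong to members, Ifi203, Ifi206, Ifi208, Ifi213, Ifi214 and Mndal. For Ifi203 it was in the promoter of the second start, and for Mndal in that of the first, as in the printed stretches. The first start of Ifi203 had no match to the core. The second start of Mndal had a match to the core but not to the longer run. Aim2 had no match to the core in this window. The interferon-γ element TTCNNNGAA was in none of the members' promoters, against 8.3% of all promoters. These matches describe letters in a window and not sites in use.

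The copies also share transcript sequence, which bears on how reads can be assigned. In GENCODE vM21 (GRCm38), 26.1% of the 50-base windows of the longest coding Ifi208 transcript also occurred in another gene, 21.1% of them in Ifi213 and 10.9% in Ifi206. The shared proportion was 26.2% for Ifi206, 27.9% for Ifi213, 35.2% for Ifi214, 35.1% for Ifi209, 30.2% for Ifi204, 27.2% for Mndal and 10.9% for Ifi203. Aim2 shared 0.932%. Ifi214 and Ifi209 shared mostly with each other. How reads were counted, and how such shared reads were treated, is not given in the sources used here. The values of every member but Aim2 are therefore uncertain, by an amount that these proportions do not measure.

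The family was expressed at very unequal levels. In WT CD44lo, the library where the members summed highest (442 FPKM), the order was Ifi209 at 156 FPKM, Ifi206 at 101.3, Mndal at 55.9, Ifi208 at 48.5, Ifi203 at 35.2, Ifi214 at 20.0, Ifi213 at 18.2, Aim2 at 4.83 and Ifi204 at 2.67. That library gives no spread of its own. In the WT CD44hi pair, Ifi209 was at 53.3 ± 2.24 FPKM (mean ± SD, n = 2), Ifi206 at 40.1 ± 0.693, Mndal at 23.5 ± 0.975 and Ifi208 at 15.4 ± 1.65. Ifi203 followed at 9.56 ± 0.229 FPKM. Below it, Ifi214 at 7.93 ± 0.627 and Ifi213 at 7.79 ± 0.943 overlapped, then came Aim2 at 6.33 ± 0.326 and Ifi204 at 1.02 ± 0.121. All 9 members averaged 1 FPKM or more across the 6 libraries and were tested, Ifi204 being nearest to that limit with 1.64 FPKM.

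**Figure D1:**
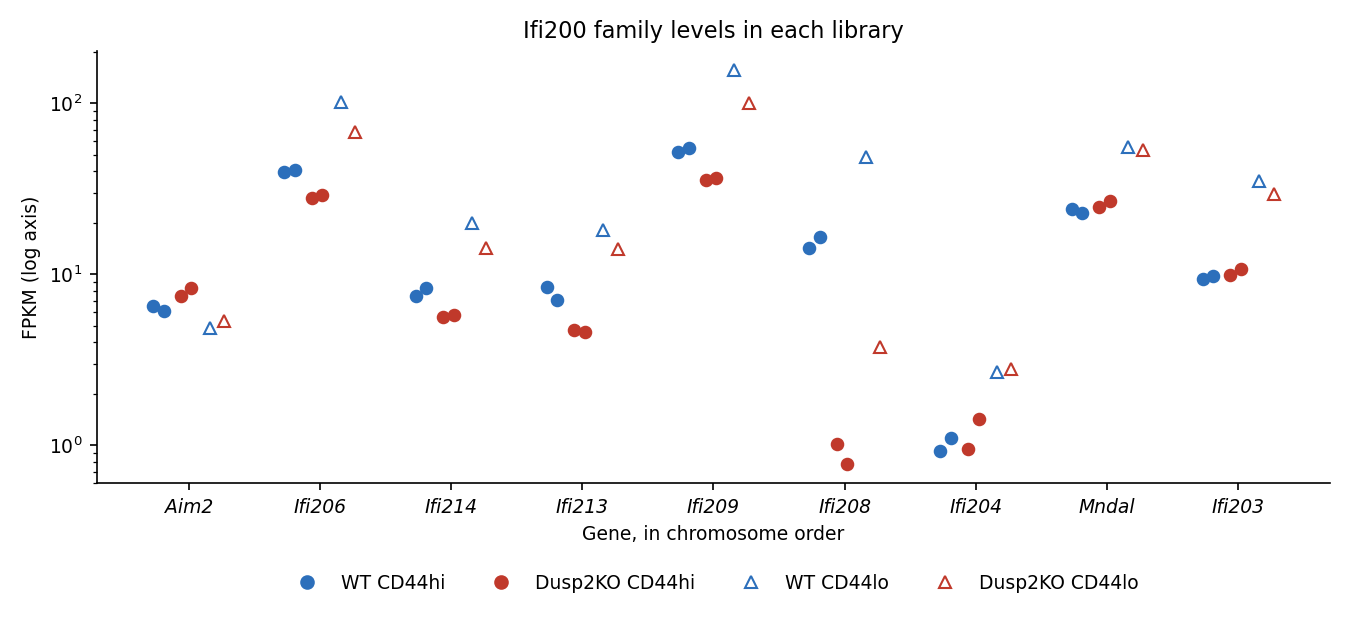
FPKM of each Ifi200 gene (log axis) in the 6 libraries, one point per library, in chromosome order; filled circles are CD44hi and open triangles CD44lo, blue is WT and red Dusp2KO. Ifi208 is the gene whose Dusp2KO points (0.780 to 3.77 FPKM) lie far below its WT points (14.2 to 48.5 FPKM), and for every gene but Aim2 the CD44lo points lie above the CD44hi points of the same genotype.

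Ifi208 was low in all 3 Dusp2KO libraries. It was at 14.2 and 16.5 FPKM in WT CD44hi but at only 1.02 and 0.780 FPKM in the Dusp2KO pair. The CD44lo libraries held 48.5 FPKM for WT against 3.77 for Dusp2KO. The highest Dusp2KO value thus lay below the lowest WT value, across both fractions. On the linear scale the level was 17.03-fold lower in Dusp2KO CD44hi and 12.9-fold lower in Dusp2KO CD44lo. Some reads were still assigned to it, with 305 and 217 in the Dusp2KO CD44hi libraries and 473 in Dusp2KO CD44lo, against 3246, 4925 and 12986 in the WT libraries. Whether these remaining reads came from Ifi208 or from stretches it shares with Ifi213 and Ifi206 was not tested.

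The neighbours did not share a loss of that size, but 4 of the other 8 members were lower in Dusp2KO CD44hi and 0 were higher, where 13.8% of all 9691 genes tested were lower. These 4 were Ifi206, Ifi214, Ifi213 and Ifi209, which lie in that order on the Aim2 side of Ifi208. Since the family was chosen with this comparison in view, the count is given beside that percentage with nothing read from it. The median difference of the 8 was -0.15 on the log2(FPKM + 1) scale, against -0.02 over all genes tested. P-values come from limma and were adjusted over all genes tested by the Benjamini-Hochberg method. Differences are Dusp2KO minus WT on that log2 scale, which understates low genes.

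Ifi206 was at 39.6 and 40.6 FPKM in WT CD44hi while the Dusp2KO pair had 27.9 and 29.3 FPKM. The gene fell by 0.47 log2 units (SE 0.062, adjusted p = 0.005), or 1.40-fold on the linear scale. Ifi213 was at 8.46 and 7.13 FPKM in WT while the Dusp2KO pair had 4.75 and 4.61 FPKM. It fell by 0.63 log2 units (SE 0.091, adjusted p = 0.006), or 1.67-fold. These are the copies with the promoters nearest to that of Ifi208, and neither came close to its 17.03-fold difference. They also share transcript sequence with it, since 11.35% of the windows of Ifi206 and 22.93% of those of Ifi213 occur in Ifi208. Whether reads of Ifi208 counted to these copies entered their differences was not tested.

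Ifi209, the most abundant member, was at 51.8 and 54.9 FPKM in WT while the Dusp2KO pair had 35.7 and 36.6 FPKM. It fell by 0.55 log2 units (SE 0.064, adjusted p = 0.003). Ifi214, its near copy, was at 7.49 and 8.37 FPKM in WT while the Dusp2KO pair had 5.59 and 5.77 FPKM. It fell by 0.42 log2 units (SE 0.078, adjusted p = 0.014). The call of Ifi214 was lost without Dusp2KO CD44hi replicate 1 (adjusted p = 0.056, range 0.001 to 0.089 over the alternatives). With no filter on low values none of the 4 passed (adjusted p between 0.063 and 0.089), a setting in which only 2 genes of the whole table did.

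The members on the far side of Ifi208 gave other values. Mndal, which has been linked to growth arrest, was at 24.2 and 22.8 FPKM in WT CD44hi while the Dusp2KO pair had 24.8 and 26.7 FPKM. The difference was 0.13 log2 units with a 95% interval from -0.04 to 0.29 (adjusted p = 0.211). Ifi203 was at 9.39 and 9.72 FPKM in WT while the Dusp2KO pair had 9.97 and 10.8 FPKM, a difference of 0.11 with an interval from -0.06 to 0.28 (adjusted p = 0.284). Neither interval reached the differences of the 4 genes that fell. Ifi204 was at 0.930 and 1.10 FPKM in WT while the Dusp2KO pair had 0.947 and 1.42 FPKM, and these ranges overlapped. Its difference of 0.11 had an interval from -0.20 to 0.42 (adjusted p = 0.572). The direction turned without Dusp2KO CD44hi replicate 2 (-0.05). Since this scale understates so low a gene, the interval cannot be set against the differences of the 4 genes that fell.

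Aim2, at the outer end of the cluster, was at 6.56 and 6.10 FPKM in WT CD44hi while the Dusp2KO pair had 7.47 and 8.31 FPKM. The difference of 0.28 log2 units (SE 0.085, 95% interval 0.07 to 0.48) missed the threshold with an adjusted p of 0.053. It passed in 5 of 14 alternatives, with adjusted p-values from 0.026 to 0.392 over all of them.

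The cluster holds further family genes that are not among the 9. Ifi211, between Mndal and Ifi203, was at 0.618 and 1.13 FPKM in WT CD44hi while the Dusp2KO pair had 1.98 and 2.46 FPKM. Its difference was 0.79 log2 units (SE 0.155), of the opposite sign to that of Ifi208. It ran from 0.593 without WT CD44hi replicate 1 to 1.349 with voom. Ifi211 passed the filter on low values through the Dusp2KO libraries, since its WT CD44hi mean was 0.873 FPKM. The difference is therefore given as a description with no test. In CD44lo the WT library had 0.946 FPKM and the Dusp2KO library 2.02. Its sequence is shared with members too, since 23.2% of the windows of Ifi204 and 14.97% of those of Mndal also occur in it. Ifi207 and Ifi205 were at no more than 0.0245 and 0.0127 FPKM in any library.

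**Figure D2:**
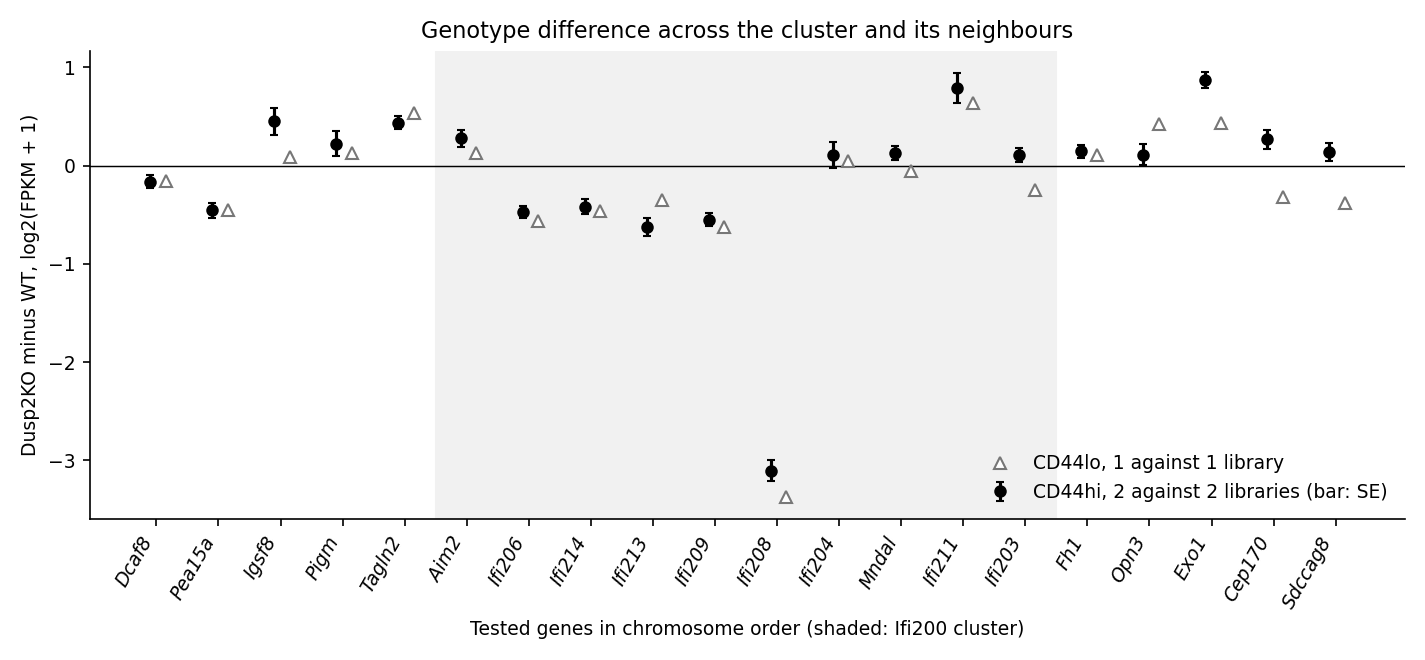
Dusp2KO minus WT difference in log2(FPKM + 1) for the tested genes of the Ifi200 cluster (shaded) and the 5 tested protein-coding genes on each side, in chromosome order; circles are CD44hi with SE bars and triangles the single CD44lo pair. Ifi208 stands at -3.10 and -3.38, the 4 genes before it between -0.63 and -0.35, and Ifi211 at 0.79 and 0.63.

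Genes that flank the cluster had no value near that of Ifi208. Of the 5 tested protein-coding genes before it, the adaptor gene Pea15a fell by 0.45 log2 units in Dusp2KO CD44hi (adjusted p = 0.009) and the actin-binding gene Tagln2 rose by 0.43 (adjusted p = 0.007), a call lost without Dusp2KO CD44hi replicate 1 (adjusted p = 0.054, range 3.10e-04 to 0.071). Dcaf8, Igsf8 and Pigm, at -0.17, 0.45 and 0.22, did not pass. Of the 5 after it, Exo1, a DNA repair exonuclease, rose by 0.87 (adjusted p = 0.002), while Fh1, Opn3, Cep170 and Sdccag8 lay between 0.11 and 0.27 and did not pass. Gene order is that of RefSeq GRCm38.p6.

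In CD44lo, with 1 library per genotype and no test, 0 of the other 8 members differed 2-fold or more, as 1.68% of all genes tested did (0.887% lower and 0.795% higher), and their median difference was -0.30 log2 units against -0.01 over all genes. Ifi209 was at 156 FPKM in WT and at 100.7 for Dusp2KO (-0.63), Ifi206 at 101.3 and 68.0 (-0.57), Ifi214 at 20.0 and 14.2 (-0.47) and Ifi213 at 18.2 and 14.1 (-0.35). On the far side of Ifi208, Ifi203 was at 35.2 and 29.4 FPKM (-0.25), Mndal at 55.9 and 53.7 (-0.06) and Ifi204 at 2.67 and 2.80 (0.05). For Aim2 the WT library had 4.83 FPKM and the Dusp2KO library 5.36 (0.12).

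Ratios taken within a library do not depend on its scaling. Ifi208 stood at 1.68, 2.32 and 2.67 times the FPKM of Ifi213 in the WT CD44hi pair and WT CD44lo. In the Dusp2KO CD44hi pair and Dusp2KO CD44lo the ratio was 0.215, 0.169 and 0.268. Ifi208 thus exceeded its near copy in every WT library and lay below it in every Dusp2KO library. Among copies that both fell, ratios stayed closer, with Ifi209 at 6.34 to 7.09 times Ifi214 in Dusp2KO and 6.56 to 7.80 times in WT. Ifi208 made up 8.73%, 9.88% and 10.96% of the summed FPKM of the 9 genes in WT and 0.867%, 0.628% and 1.29% in Dusp2KO.

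The 4 genes on the Aim2 side of Ifi208 summed, stood at 3.11, 3.30 and 3.15 times the summed FPKM of Ifi204, Mndal and Ifi203 in the WT libraries. In the Dusp2KO libraries this ratio was 2.07, 1.96 and 2.30. In CD44hi the values of the genotypes did not overlap. The CD44lo libraries have no replicates, so overlap cannot be judged in that fraction, where the Dusp2KO value was the lower. This grouping of the genes was made after the values had been seen and has no test.

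**Figure D3:**
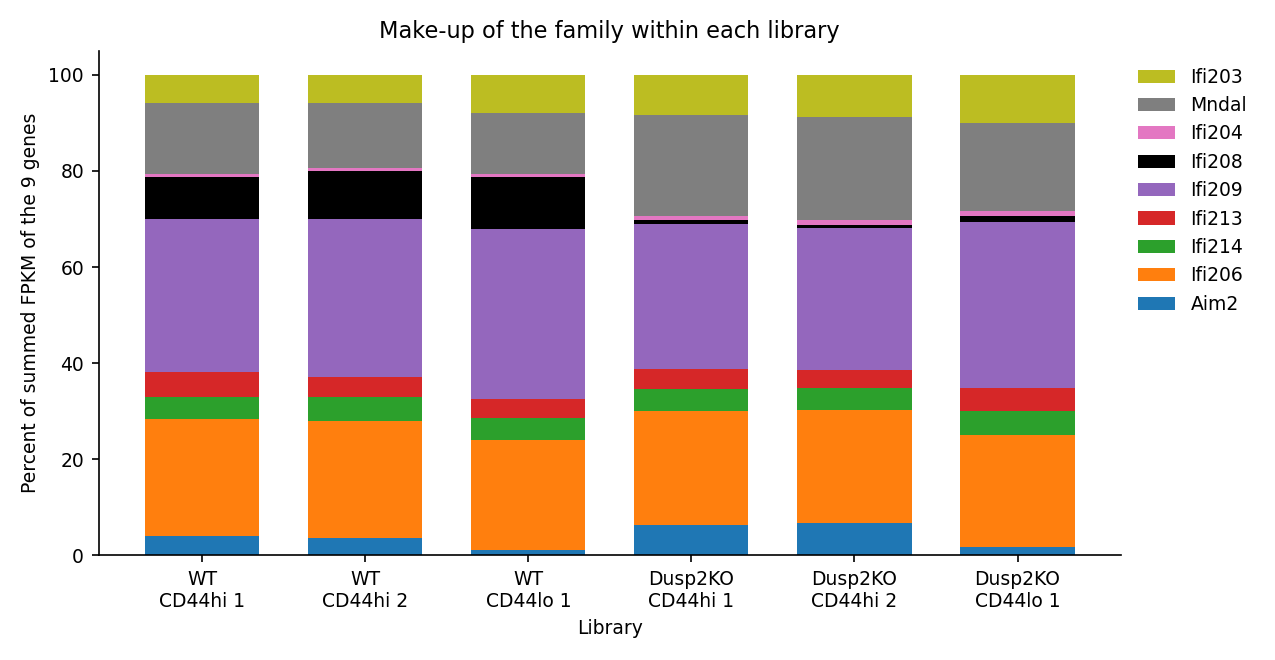
Percent of the summed FPKM of the 9 Ifi200 genes that each gene contributes, one stacked bar per library. The black band of Ifi208 is 8.73% to 10.96% in the WT libraries and 0.628% to 1.29% in the Dusp2KO libraries, while Ifi209 (29.4% to 35.2%) and Ifi206 (22.9% to 24.4%) are the broadest bands in every library.

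The sorted fractions differed in nearly the whole family, whose members were chosen with earlier results of these data known. In WT, 8 of 9 members were lower in CD44hi than in CD44lo, against 10.7% of all genes tested, with 0 higher. In Dusp2KO the same 8 were lower, against 16.5% of all genes, and 1 was higher, against 23.6%. The median difference of the 9 was -1.24 log2 units in WT and -1.22 in Dusp2KO, where the medians over all genes were 0.05 and 0.05. These comparisons share the CD44hi libraries with the genotype comparison, and each rests on 1 CD44lo library assumed to vary like the CD44hi pairs. The Dusp2KO fractions also differed in Xist, with 15.1 and 15.5 FPKM for CD44hi against 0 for CD44lo. In the Dusp2KO fraction comparison and in the interaction, fraction and differences between mice therefore cannot be told apart.

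Ifi203 had the largest fraction difference in WT, with 9.39 and 9.72 FPKM in CD44hi and 35.2 FPKM in CD44lo (-1.78 log2 units, SE 0.085, adjusted p = 8.29e-05). Ifi208 came next, at -1.60 (SE 0.127, adjusted p = 4.22e-04), and Ifi209 followed at -1.53 (SE 0.078, adjusted p = 9.14e-05). Ifi206, Ifi214, Mndal and Ifi213 lay between -1.31 and -1.13. Ifi204 was at -0.87 (SE 0.160, adjusted p = 0.010) on this scale, which understates so low a gene. It was at -1.32 with a pseudocount of 0.1 and at -1.39 with voom on recovered reads, and its 2.63-fold linear difference was no smaller than those of Ifi206, Ifi214, Mndal and Ifi213. Its call was lost with no filter on low values (adjusted p = 0.099, range 9.06e-05 to 0.099). On the linear scale the 8 members were between 2.34-fold and 3.68-fold higher in WT CD44lo.

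In Dusp2KO the 8 were between 2.09-fold and 4.18-fold higher in CD44lo. The values of Ifi208, low in both fractions, also differed, with 1.02 and 0.780 FPKM for CD44hi against 3.77 for CD44lo (-1.33 log2 units, SE 0.127, adjusted p = 6.47e-04). On the linear scale Ifi208 was 3.16-fold higher in CD44lo in WT and 4.18-fold higher in Dusp2KO. Ifi206 and Ifi213, which share sequence with it, were 2.38-fold and 3.01-fold higher in Dusp2KO CD44lo. Whether the Dusp2KO difference came from Ifi208 itself or from these shared stretches was not tested. The log2 difference of Ifi208 was -2.07 with voom. Ifi209 was at -1.45, Ifi203 at -1.42, Ifi213 at -1.41 and Ifi204 at -0.81 (-1.28 with voom). Without a filter Ifi204 did not pass here either (adjusted p = 0.089, range 1.15e-04 to 0.089).

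Aim2 went the other way. In Dusp2KO its 7.47 and 8.31 FPKM in the CD44hi pair lay above the 5.36 of CD44lo, and it rose by 0.48 log2 units (SE 0.104, adjusted p = 0.012), a call lost without Dusp2KO CD44hi replicate 2 and with no filter (adjusted p = 0.073 in both, range 0.004 to 0.073). In WT it was at 6.56 and 6.10 FPKM in CD44hi and 4.83 FPKM in CD44lo, a difference of 0.33 (95% interval 0.08 to 0.58) that did not pass (adjusted p = 0.059, range 0.027 to 0.151), except without WT CD44hi replicate 2 (0.027).

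**Figure D4:**
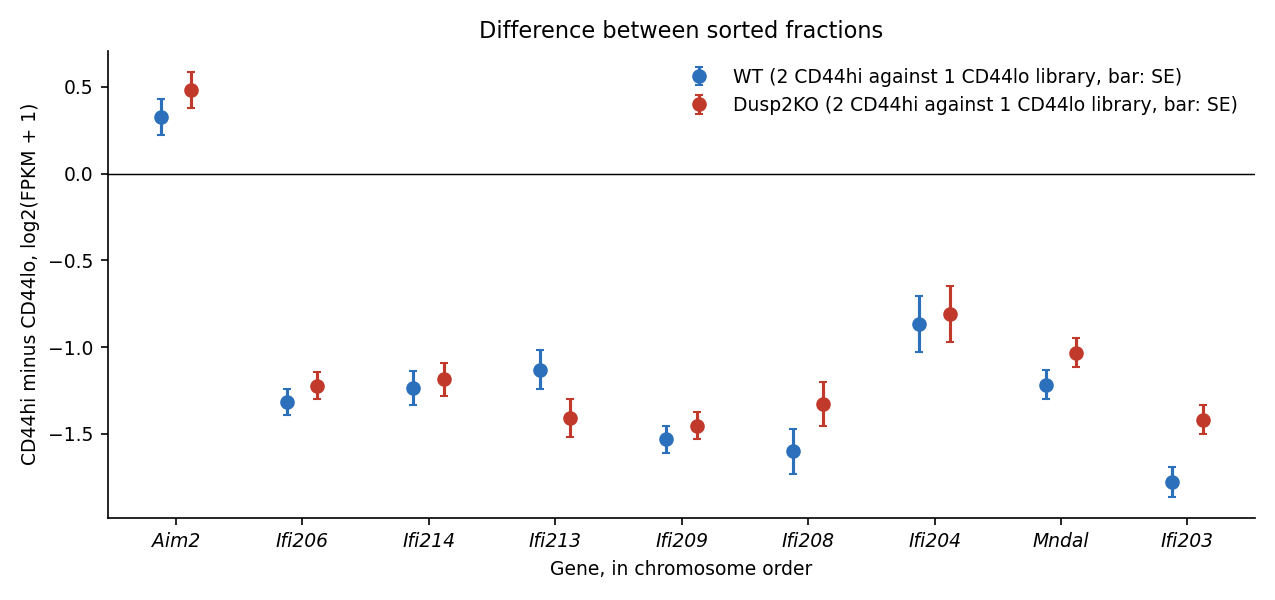
CD44hi minus CD44lo difference in log2(FPKM + 1) for each Ifi200 gene, WT in blue and Dusp2KO in red, with SE bars. Aim2 is above 0 in both genotypes (0.33 and 0.48) and the other 8 genes lie between -1.78 and -0.81.

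Whether the fraction difference itself differed between genotypes was tested as an interaction. This comparison contains the CD44hi genotype difference in view when the family was chosen, so nothing is read from the count of members. By limma 0 of 9 members passed, where 4.22% of all genes did (1.49% lower and 2.73% higher), and also 0 on recovered reads with limma voom, with 1 member at an unadjusted p under 0.05. That member was Ifi203, whose difference was 0.36 log2 units smaller in Dusp2KO (SE 0.121, 95% interval 0.07 to 0.65, adjusted p = 0.118). For Ifi208, given as a description, the interaction was 0.27, and its sign turned with a pseudocount of 0.1 (-0.30) and on recovered reads (-0.41). For Ifi213 it was -0.28 (interval -0.66 to 0.10), and this passed without WT CD44hi replicate 2 (-0.39, adjusted p = 0.049, range 0.049 to 0.576).

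Profiles over the 6 libraries were then compared. Likeness was taken as the root mean square difference of log2(FPKM + 1) after centring each gene on its own mean. Ifi206 and Ifi214 were each other's nearest gene of the whole table, at 0.06, and Ifi206 was also the nearest gene to Ifi213, at 0.12. Mndal and Ifi204 were nearest among the members to each other, at 0.16, and Ifi203 was nearest to Mndal, at 0.23. Ifi208 was far from all, its nearest member being Ifi209 at 1.31, which ranked 66 of 9690 genes. The 5 genes nearest to Ifi208 were the T cell receptor alpha segments Trav16 (0.76), Trav12-2 (0.77), Trav7-5 (0.82) and Trav6n-6 (0.85) and the predicted gene Gm43305 (0.93). These segments have near-identical copies of their own.

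Interferon-inducible genes outside the family were set beside it. Of 41 tested, 20 fell in Dusp2KO CD44hi and 0 rose, with a median of -0.28 log2 units against -0.02 over all genes, where 13.8% fell and 12.9% rose. Fewer of the 41 fell without either Dusp2KO CD44hi library and more fell without either WT CD44hi library, as was so over all genes. Some of the 41 rose when a WT CD44hi library was left out. The lowest was Oasl1, of the OAS family, at -0.88 (adjusted p = 0.001). Next by p came Slfn1, a growth regulator of the Schlafen family, at -0.77 (adjusted p = 0.002), Rtp4, a chaperone of receptors, at -0.70 (adjusted p = 0.003), and Irf7, which drives interferon genes, at -0.67 (adjusted p = 0.003). No gene of this list was as low as Ifi208 (-3.10), while the 4 neighbours that fell lay within its range of -0.88 to 0.24. Between fractions, 35 of the 41 were lower in CD44hi in WT, against 10.7% of all genes, with a median of -1.02, and 35 were lower in Dusp2KO, against 16.5%, with a median of -1.11. The family's medians of -1.24 and -1.22 lie beside these, and the difference between both sets was not tested.

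Genes that carry the interferon signal moved in part with them. Of 19 receptor and signalling genes, 10 fell and 3 rose in Dusp2KO CD44hi, against 13.8% and 12.9% of all genes, with a median of -0.30. Both counts were smaller without either Dusp2KO CD44hi library, as were those over all genes. Irf9 and Stat2, which act in the nucleus on interferon-responsive promoters, fell by 0.55 (adjusted p = 0.003) and 0.52 (adjusted p = 0.005). Irf1, an activator of interferon-responsive promoters, was lowest at -0.84 (adjusted p = 0.001). In CD44hi against CD44lo, 11 of the 19 were lower in WT and 12 in Dusp2KO, against 10.7% and 16.5% of all genes.

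Among the partners of the family in DNA sensing, 3 of 22 tested genes fell and 5 rose in Dusp2KO CD44hi, with a median of 0.04. Over all genes 13.8% fell and 12.9% rose, so the number that fell was near that share. Both counts were smaller without either Dusp2KO CD44hi library and larger without WT CD44hi replicate 1, as were those over all genes. After median-ratio scaling 1 fell, where 1217 of all 9691 genes tested did. Zbp1, a sensor of nucleic acids in the Z form that interferon also induces, fell by 0.59 (adjusted p = 0.003). Cgas, the enzyme that makes the messenger for STING, rose by 0.83 (adjusted p = 0.004), as did the DNA repair gene Rad50 by 0.55 (adjusted p = 0.004) and the helicase gene Dhx9 by 0.41 (adjusted p = 0.008). Of 14 inflammasome genes only 4 had enough signal to be tested, and 0 of them passed by limma. With the replicate block and with voom 1 gene passed as lower, where 1761 and 1452 of all 9691 genes tested did. The result also changed without either WT CD44hi library, as did the counts over all genes. Pycard, the adaptor of Aim2, was at 4.57 and 5.74 FPKM in WT while the Dusp2KO pair had 3.87 and 3.83 FPKM (-0.34, adjusted p = 0.059).

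Cells other than CD8 T cells that express this family were looked for by their markers. The macrophage and monocyte markers found, 6 of 8, summed to between 2.92 and 4.15 FPKM, nearly all of it Cd68, while Lyz2 and Adgre1 reached no more than 0.134 and 0.0142 FPKM. The B cell markers found, 3 of 6, summed to 22.4 and 24.8 FPKM in the Dusp2KO CD44hi pair, against 12.6 and 10.1 for the WT pair, and in CD44lo to 11.4 FPKM for Dusp2KO against 7.20 for WT. Nearly all of that was Cd79b, since Cd79a stayed at or under 0.379 FPKM. The CD4 T cell list stayed at or under 0.589 FPKM, the NK cell list at or under 0.265 FPKM and the granulocyte list at or under 0.127 FPKM. The dendritic cell list, nearly all of it Zbtb46, summed to 1.87 and 1.84 FPKM in the Dusp2KO CD44hi pair against 0.619 and 0.669 for the WT pair, and to 0.665 against 0.145 in CD44lo. The part of these cells in the family's differences was not tested.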

How the data were processed

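Values were taken from the FPKM table that the authors deposited, with 1 column per library, matched to samples by title. The aligner was HISAT2 2.0.5, per the submitters' processing notes, which also list mm39 and hg38 with no role. Which counter and annotation made the FPKM was not given in the sources used here. Whole reads were recovered from the FPKM steps (100% of 16220 rows above 0 in at least 2 libraries, tolerance 1e-06 reads) as the smallest whole numbers that give the observed ratios, and served for depths and 1 alternative.

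The test was limma 3.58.1 (R 4.3.3) on log2(FPKM + 1), pseudocount 1, with a variance trend, for the 9691 rows with a mean of at least 1 FPKM, two-sided, with Benjamini-Hochberg adjustment at 0.05. The model had 1 coefficient per group and 2 residual degrees of freedom. It was tested on simulated data. CD44lo libraries of both genotypes were compared without a test. Named genes were all 9 members, other cluster genes, 5 flanking genes a side, up to 4 genes of each list with the smallest p, and the 5 genes nearest to Ifi208. The members and lists were chosen with earlier results of these data known. Promoters were aligned with Biopython 1.88. 1 gene of the interferon signalling list is not reported here by name.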

Additional observations from a re-analysis of the deposited data

How the results depend on the processing

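Alternatives were a pseudocount of 0.1, no filter, a mean of at least 5 FPKM, median-ratio scaling, rescaling to a total of 1000000, no variance trend, limma voom on recovered reads, a replicate block and each library left out. The count of the other 8 members past the threshold in the CD44hi genotype comparison was 4, and 0 with no filter. Leaving out 1 library gave 3 to 5. The interaction count of 0 became 1 without WT CD44hi replicate 2. For CD44lo, 3 alternatives (a pseudocount of 0.1 and both scalings) were chosen after seeing the data, and the count at 2-fold was 0 in each. No other count of members moved by over 1.5 times.

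Over all genes, the genotype count of 2586 (1248 higher, 1338 lower) was 2 with no filter and 1088 to 4092 with 1 library left out, and the split was 1292 and 914 after rescaling. The fraction count in WT (1490 higher, 1037 lower) was 1170 with no filter and 2171 to 3825 with 1 library left out, with 1253 higher and 1318 lower after median-ratio scaling. In Dusp2KO (2285 and 1603) it was 2085 with no filter and 2524 to 5515 with 1 library left out, with 3154 and 969 after rescaling, which moved the median of all genes by 0.14. The interaction count of 409 (265 and 144) was 39 with no filter, 117 without a variance trend, 1565 with the replicate block and 346 to 3046 with 1 library left out. The split was 379 and 43 after rescaling and 430 and 138 with voom.

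With 1 library left out, the Ifi204 genotype difference ran from -0.048 (without Dusp2KO CD44hi replicate 2) to 0.264, its interaction from -0.099 (without the same library) to 0.214, with -0.004 without WT CD44hi replicate 1, and the Ifi214 interaction from -0.022 (without WT CD44hi replicate 1) to 0.121. The Ifi208 interaction changed sign to -0.303 with a pseudocount of 0.1 and -0.411 with voom. The cause was not tested. The Ifi208 genotype difference of -3.10 was -3.954 with a pseudocount of 0.1, -3.658 after rescaling and -4.096 with voom.

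Whether same-numbered CD44hi libraries were prepared together is not given in the sources used here. Their deviations correlated at 0.022 across 9691 genes, which cannot decide it. With the replicate block 5 of 8 members passed in the genotype comparison, the added one being Aim2, and 3326 of all genes did.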
